A study of Drosophila melanogaster with 4 samples.

Results

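The genes described here are 10 genes of the piRNA pathway of Drosophila melanogaster, the Piwi proteins and their partners in transposon silencing: piwi, aub, AGO3, vas, spn-E, armi, zuc, krimp, rhi and cuff. They were chosen by name, without a cut on measured values, though earlier results of these data were known when they and the lists below were chosen. Their FlyBase symbols were matched to the identifiers of the deposited count table. Of the 10, 9 were found among its 17628 gene identifiers, and all 9 passed the filter on low counts, which left 12529 genes for testing. vas, the DEAD-box helicase Vasa that marks germ cells, was not matched to a row of the table and is not analysed here.

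The flies were of the Oregon strain, 5 days old, and had fed on food with galactose (2 libraries) or with glucose (2 libraries), and the title of the series places them in work on hormesis and inherited resistance to aging. Poly-A RNA came from whole flies. The labels give no sex, no number of flies per library and no length of feeding, and nothing about replicates being separate cultures; p-values below therefore speak only of library-to-library spread, part of which may be technical. Total counts were 23647685 and 21147212 in galactose replicates 1 and 2 and 25497099 and 23334524 in glucose replicates 1 and 2.

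piRNAs are small RNAs of animal gonads that guide Piwi-family Argonaute proteins to transposon transcripts. In the fly ovary, Piwi enters the nucleus and silences transposons at the level of transcription, while Aub and AGO3 cut transposon and piRNA precursor transcripts in turn in the perinuclear nuage, the cycle known as ping-pong. The precursors come from piRNA clusters in heterochromatin, whose transcription in germ cells depends on Rhi and Cuff, and are cut into piRNAs at the mitochondrial surface by Zuc with the help of the helicase Armi. Piwi, Armi and Zuc also act in the somatic follicle cells around the germ line, and aub, AGO3 and spn-E also silence repeats in the testis.

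All 9 measured genes had a higher mean level on galactose, by 1.22-fold (aub) to 2.34-fold (AGO3), with a median log2 fold change of 0.69 against -0.04 over all genes tested. For 8 of the 9 both galactose libraries lay above both glucose libraries, an order that 18.8% of all tested genes showed; krimp was the exception, and with upper-quartile scaling aub was another (7 of 9, against 14.6%). None of the 9 passed edgeR's quasi-likelihood test at an adjusted p of 0.05, where adjusted p-values lay between 0.582 (AGO3) and 0.745 (aub). The same test called 0 of the 12529 genes (0%), and 1033 had an unadjusted p under 0.05. DESeq2 called 88 genes (0.685%), of which 13 were higher and 75 lower on galactose, and 0 of the 9. At an unadjusted p under 0.05 in the edgeR test, 3.08% of all genes were higher on galactose and 5.16% lower; AGO3 and cuff were the 2 of the 9 among the higher ones, and 0 of the 9 were among the lower. A p that misses the threshold does not show that levels were equal, so the genes are described by their values in each library. Leaving out galactose replicate 2 or glucose replicate 1 gave the 9 genes a median log2 fold change of 0.39 or 0.40, so 1 library of either diet moved it.

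**Figure D1:**
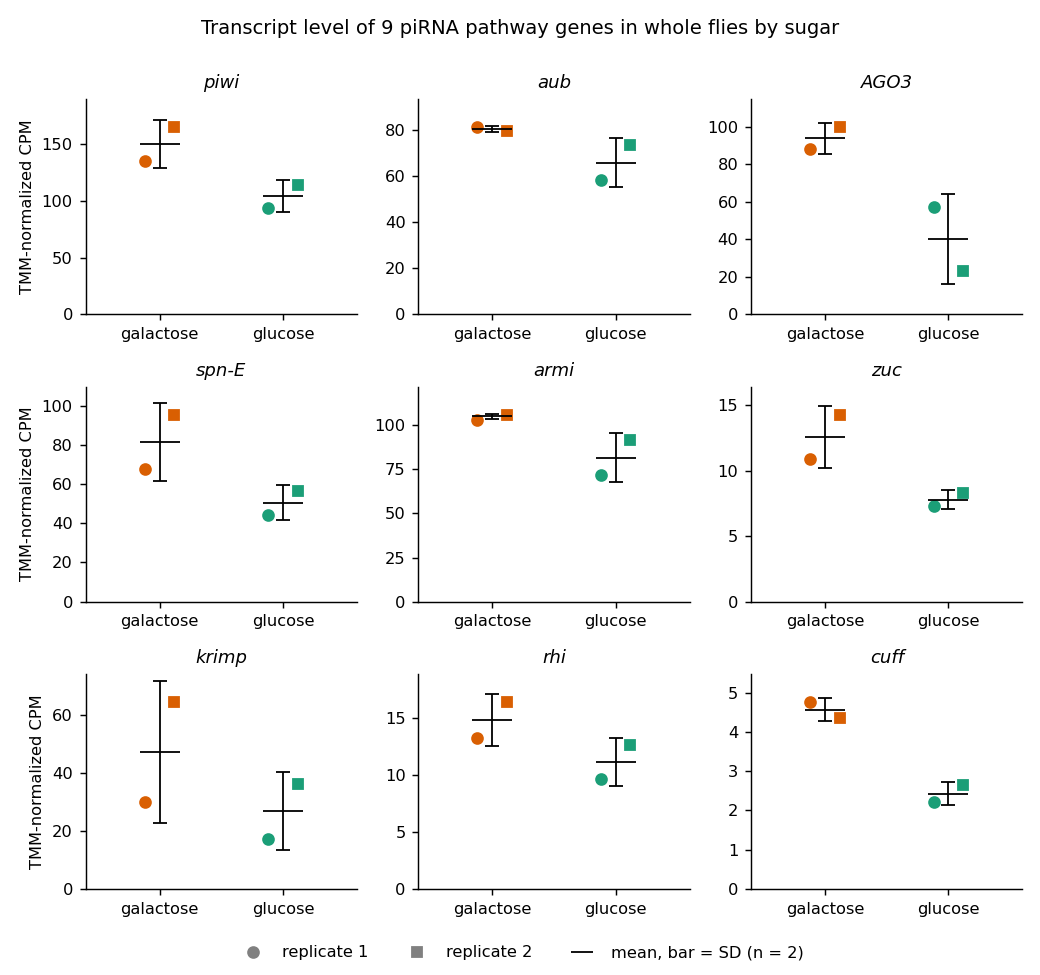
Level of each of the 9 genes in CPM after TMM scaling (y axis from 0) in galactose and glucose libraries; circles are replicate 1, squares replicate 2, and the line and bar are the mean and SD of 2 libraries. The galactose points lie above the glucose points in each panel except krimp, where galactose replicate 1 (30.0 CPM) is below glucose replicate 2 (36.3 CPM).

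The transcripts of the 3 Piwi-family genes differed in how far and how steadily they stood apart between the sugars. piwi, the nuclear member of the family (FBgn0004872, chromosome 2L, 10982205 to 10987420 of BDGP6, minus strand), had 135 and 165 CPM in galactose replicates 1 and 2, against 93.6 and 114 CPM in glucose replicates 1 and 2, where CPM is the count scaled to a common library total after TMM normalization. The diets did not overlap, and the lowest galactose library was 1.19 times the highest glucose library. Its log2 fold change of galactose over glucose was 0.54 ± 0.26 (SE; edgeR adjusted p = 0.62).

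aub, which encodes the cytoplasmic Aubergine (FBgn0000146, 2L, 10997819 to 11001476, minus strand, close to piwi on the same strand), had 81.0 and 79.4 CPM in galactose replicates 1 and 2, against 58.3 and 73.2 CPM in the glucose replicates. The 2 galactose libraries were nearly equal and the diets were separated by a factor of 1.08 only. This was the smallest difference of the 9 genes, at a log2 fold change of 0.29 ± 0.26 (SE; edgeR adjusted p = 0.745).

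AGO3, the partner of Aub in ping-pong (FBgn0250816, 3L, 23554593 to 23689640, plus strand), had 88.0 and 99.8 CPM in galactose replicates 1 and 2, against 57.0 and 23.1 CPM in the glucose replicates. It was the gene with the largest fold change, with both galactose libraries high and glucose replicate 2 far below every other library. The log2 fold change was 1.23 ± 0.43 (SE; edgeR adjusted p = 0.582; DESeq2 adjusted p = 0.149), and the authors' deposited table gives an adjusted p of 0.139.

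Glucose replicate 2 alone set much of the AGO3 value. Within glucose, replicate 1 had 2.47 times the AGO3 level of replicate 2, and the means were 93.9 ± 8.35 CPM on galactose and 40.0 ± 24.0 CPM on glucose (SD, n = 2 each). Without glucose replicate 2 the log2 fold change was 0.73 (edgeR adjusted p = 0.303), and without glucose replicate 1 it was 2.02 (edgeR adjusted p = 0.00068), the second resting on 1 glucose library assumed to vary like the galactose ones. In that fit 4.31% of all tested genes were called. Of the 9421 tested genes with a mean of at least 5 CPM, 590 (6.26%), AGO3 included, had a ratio of glucose replicate 2 to replicate 1 as low as that of AGO3. None of the other 8 genes shared the drop: their ratios of glucose replicate 2 to replicate 1 ran from 1.14 (zuc) to 2.10 (krimp).

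AGO3 is also unlike the other members in its structure. It spans 135048 bases for 3182 exonic bases in the BDGP6.54 annotation, while the spans of the other 8 measured genes run from 1148 (zuc, a single exon) to 6997 bases (spn-E). Looked at after its values were seen, the other 63 tested genes that span at least 100 kb had a median log2 ratio of glucose replicate 2 to replicate 1 of -0.22, against 0.07 over all 9421 genes, and a median log2 fold change of galactose over glucose of 0.32, against 0.02. The part of gene span in the AGO3 value was not tested.

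**Figure D2:**
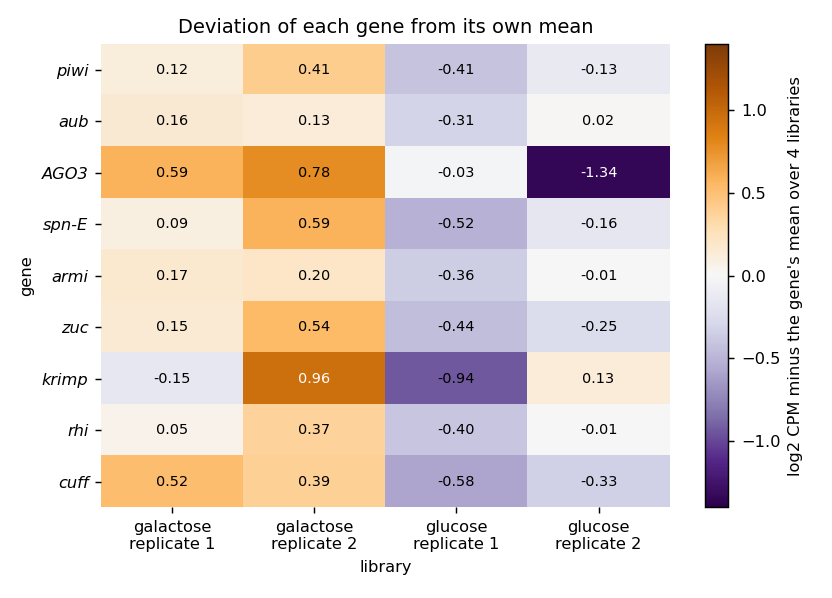
Deviation of each gene in each library from its own mean over the 4 libraries, in log2 CPM (colour and printed value). AGO3 stands out at -1.34 in glucose replicate 2, krimp at 0.96 in galactose replicate 2 and -0.94 in glucose replicate 1, and most other genes run from lowest in glucose replicate 1 to highest in galactose replicate 2.

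Of the nuage partners, spn-E encodes a helicase of the DExH type with a Tudor domain, needed for ping-pong. spn-E (FBgn0003483, 3R, 15837419 to 15844415, plus strand) had 67.5 and 95.4 CPM in galactose replicates 1 and 2, against 44.1 and 56.6 CPM in the glucose replicates. The diets did not overlap, though within galactose replicate 2 was 1.41 times replicate 1. The log2 fold change was 0.69 ± 0.29 (SE; edgeR adjusted p = 0.606, unadjusted p = 0.0511).

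krimp encodes the Tudor-domain protein Krimper, which brings AGO3 and Aub together in the nuage. krimp (FBgn0034098, 2R, 16238103 to 16240722, minus strand) had 30.0 and 64.5 CPM in galactose replicates 1 and 2, against 17.3 and 36.3 CPM in the glucose replicates. It was the only gene of the 9 whose diets overlapped, at means of 47.2 ± 24.4 CPM on galactose and 26.8 ± 13.4 CPM on glucose (SD, n = 2 each), and the replicate number separated its libraries more than the sugar did. Replicate 2 was 2.15 times replicate 1 on galactose and 2.10 times on glucose, and 12 of the 9421 genes (0.127%), krimp included, had ratios at least this high on both sugars.

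The krimp fold change therefore depended on which libraries were compared. With all 4 libraries the log2 fold change was 0.82 ± 0.48 (SE; edgeR adjusted p = 0.647). Leaving out galactose replicate 2 gave 0.16. Leaving out glucose replicate 2 gave 1.45, and krimp then passed (edgeR adjusted p = 0.0435; 1.14% of all tested genes were called in that fit). Among markers of the female germ line, 2 genes chosen after their values were seen, osk and bcd, also stood higher in replicate 2 on both sugars. Their ratios of replicate 2 to replicate 1 were the largest of that list. Lower levels in replicate 2 on glucose were seen for exu, plu and wisp (ratios 0.675, 0.948 and 0.969). The other tested markers were higher in replicate 2 on both sugars, by smaller ratios than osk and bcd. The localized oocyte transcript osk was at 316 and 836 CPM in galactose replicates 1 and 2, against 138 and 629.6 CPM in the glucose replicates. bcd, the transcript of the anterior determinant, was at 28.6 and 113 CPM on galactose, against 13.9 and 66.6 CPM on glucose. Whether the krimp values follow these transcripts was not tested.

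The biogenesis factors armi and zuc both had separated diets. armi encodes an RNA helicase that binds piRNA precursors and carries them to mitochondria. armi (FBgn0041164, 3L, 3461317 to 3466314, plus strand) had 103 and 106 CPM in galactose replicates 1 and 2, against 71.9 and 91.4 CPM in the glucose replicates. As with aub, the galactose libraries were nearly equal and glucose replicate 2 came close to them; the log2 fold change was 0.36 ± 0.25 (SE; edgeR adjusted p = 0.695). In the BDGP6.54 annotation 99.6% of the exonic bases of armi are shared with CG46463 on the same strand. CG46463 was not matched to a row of the count table, so the armi value may include its reads.

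zuc encodes Zucchini, the mitochondrial endonuclease that makes the 5′ ends of phased piRNAs. zuc (FBgn0261266, 2L, 11988735 to 11989882, minus strand) had 10.9 and 14.3 CPM in galactose replicates 1 and 2, against 7.29 and 8.29 CPM in the glucose replicates. The counts behind these values were 263 and 318 on galactose, against 187 and 179 on glucose. The lowest galactose library was 1.32 times the highest glucose library, and the log2 fold change was 0.69 ± 0.33 (SE; edgeR adjusted p = 0.62).

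rhi and cuff act at the clusters themselves. rhi encodes Rhino, an HP1-family protein that binds the histone mark H3K9me3 at clusters read from both strands. rhi (FBgn0004400, 2R, 17628491 to 17633516, minus strand) had 13.2 and 16.4 CPM in galactose replicates 1 and 2, against 9.62 and 12.6 CPM in the glucose replicates. The diets were separated by a factor of 1.05, the narrowest gap among the 8 separated genes, and the log2 fold change was 0.41 ± 0.33 (SE; edgeR adjusted p = 0.717).

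cuff encodes Cutoff, a Rai1-like protein that keeps cluster transcription from terminating. cuff (FBgn0260932, 2R, 11886067 to 11887603, plus strand) had 4.77 and 4.36 CPM in galactose replicates 1 and 2, against 2.22 and 2.64 CPM in the glucose replicates. It was the least counted gene, with 115 and 97 counts on galactose, against 57 and 57 on glucose, yet its diets had the widest gap, with the lowest galactose library at 1.65 times the highest glucose library. The log2 fold change was 0.91 ± 0.38 (SE; edgeR adjusted p = 0.606, unadjusted p = 0.0488). Without each library in turn it stayed between 0.77 and 1.04, the narrowest range of the 9.

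**Figure D3:**
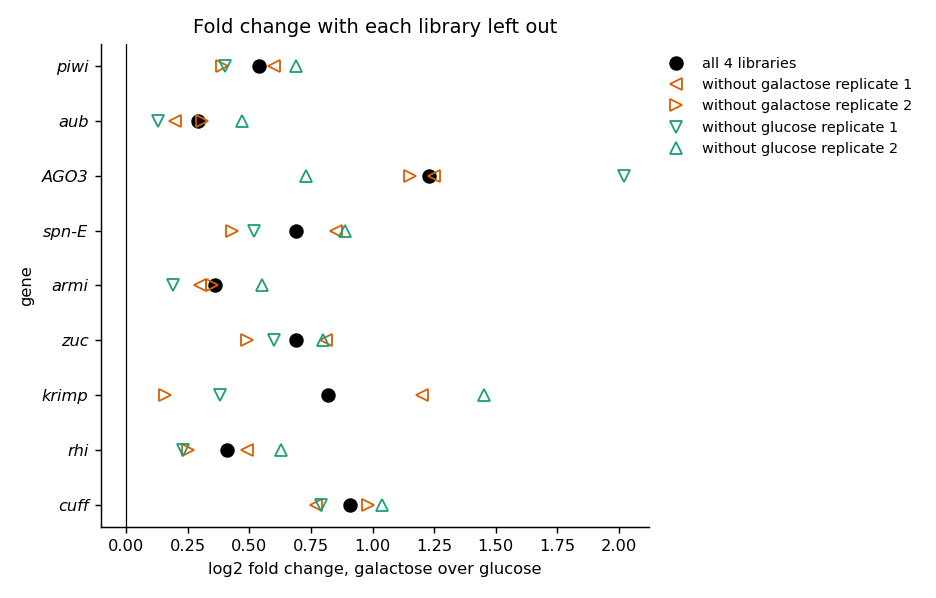
Log2 fold change of galactose over glucose (x axis) for each gene with all 4 libraries (filled circles) and with each library left out (open symbols, coloured by the diet of the library left out). All points lie above 0, AGO3 spreads from 0.73 to 2.02, krimp from 0.16 to 1.45, and cuff from 0.77 to 1.04.

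Levels can be compared between genes only per length, so CPM was divided by the annotated exonic length in kilobases (RPKM). The mean RPKM over the 4 libraries was highest for piwi, at 41.3, and ran from 30.5 to 53.7 over the libraries. aub followed at 24.2, armi at 22.4 and AGO3 at 21.0, and the ranges of neighbours in this order overlapped. krimp at 14.5 and spn-E at 14.1 came next, then zuc at 8.88 and rhi at 8.25, again with overlapping ranges. cuff was lowest at 2.70, with its highest library, 3.69, under the lowest of rhi, 6.13. piwi ranked first and cuff last in each of the 4 libraries, and their mean levels per length exceeded those of 83.4% and 23.0% of the tested genes with an annotated length. AGO3 had rank 2 in both galactose libraries, rank 3 in glucose replicate 1 and rank 7 in glucose replicate 2.

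Ratios of levels per length within a library show which partners kept step. aub over AGO3 was 0.972 and 0.840 in galactose replicates 1 and 2, against 1.08 and 3.35 in the glucose replicates. The transcripts of the ping-pong partners were thus near equal in 3 libraries and not in glucose replicate 2. piwi over aub was 1.64 and 2.04 on galactose, against 1.58 and 1.52 on glucose. The ratio of rhi to cuff was 2.28 and 3.10 on galactose, against 3.57 and 3.94 on glucose, lower in both galactose libraries. These ratios are descriptions without a test.

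The libraries took the same order for most of the genes. Galactose replicate 2 was the highest library for 7 of the 9 and galactose replicate 1 for the other 2 (aub and cuff), while glucose replicate 1 was the lowest for 8 and glucose replicate 2 for AGO3. The summed level of the 9 genes was 534 and 645 CPM in galactose replicates 1 and 2, against 361 and 418 CPM in the glucose replicates. Split by where they act, the 6 measured genes of germ cells (aub, AGO3, spn-E, krimp, rhi and cuff) had a median log2 fold change of 0.76, and the 3 that also act in ovarian somatic cells (piwi, armi and zuc) had 0.54. The groups of 6 and 3 were not tested against each other.

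In whole flies, a higher level of a germline transcript cannot be told apart from a larger share of germ cells in the RNA. The 14 tested markers of the female germ line outside the pathway summed to 2509 and 3841 CPM in galactose replicates 1 and 2, against 1766 and 2547 CPM in the glucose replicates, with 13 of 14 higher in mean and a median log2 fold change of 0.58. Of these 8 had both galactose libraries above both glucose libraries, edgeR called 0 (4 had an unadjusted p under 0.05, all higher on galactose), and cup was listed at 0 in every library. Over all tested genes, 46.9% had a higher mean on galactose, 18.8% were separated upward and 3.08% were higher at an unadjusted edgeR p under 0.05. The members' summed CPM over that of the germline markers was 0.213 and 0.168 in galactose replicates 1 and 2, against 0.205 and 0.164 in the glucose replicates. The ratio thus differed between replicate numbers and overlapped between the sugars. Of the marker sums, osk alone gave 316 and 836 CPM on galactose, against 138 and 629.6 CPM on glucose. Among these markers wisp, a cytoplasmic poly(A) polymerase of oocytes, was at 364 and 489 CPM on galactose, against 191 and 185 CPM on glucose, and DESeq2 called it (adjusted p = 0.0409). ovo, a germline transcription factor, had a log2 fold change of 0.88 (edgeR adjusted p = 0.582) and the germ cell differentiation factor bam one of 1.06 (edgeR adjusted p = 0.588).

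The summed levels of other reproductive tissues took other orders over the libraries. The 14 markers of follicle cells and egg shell summed to 18641 and 18095 CPM in galactose replicates 1 and 2, against 20356 and 11713 CPM in the glucose replicates. Gene by gene, 11 of the 14 had a higher mean on galactose (46.9% of all tested genes), with a median log2 fold change of 0.19. Only 2 were separated upward (18.8% of all tested genes) and 1 downward. The 19 tested testis markers summed to 1629 and 1432 CPM on galactose, against 3223 and 942 CPM on glucose, and the 10 accessory gland markers to 570.3 and 823 CPM on galactose, against 1087 and 494 CPM on glucose. A lower mean on galactose was found for 16 of the 19 and 9 of the 10 (6656 of all 12529 tested genes), with median log2 fold changes of -0.45 and -0.23. Markers of both sexes were thus present in every library, and in glucose replicate 1 the male ones were at their highest. Yolk protein genes Yp1, Yp2 and Yp3 summed to 16558 and 15174 CPM on galactose, against 18561 and 22062 CPM on glucose. Muscle markers summed to 3521 and 2568 CPM on galactose, against 4156 and 5902 CPM on glucose. All 5 tested muscle markers had both galactose libraries below both glucose libraries, as 23.4% of all tested genes did, with a median log2 fold change of -0.69. Of 5 photoreceptor markers 4 had a lower mean on galactose and 3 were separated downward, with a median of -0.74, and edgeR called 0 in either list (3 in each had an unadjusted p under 0.05, all lower on galactose, as were 5.16% of all tested genes). Medians were 0.33 for 4 neuron, -0.06 for 4 midgut and -0.16 for 3 tested fat body markers, of which 0 were separated in either direction, and the fat body genes Lsp2 and Fbp1 were at or near 0. The part of tissue make-up in the piRNA gene values was not tested.

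**Figure D4:**
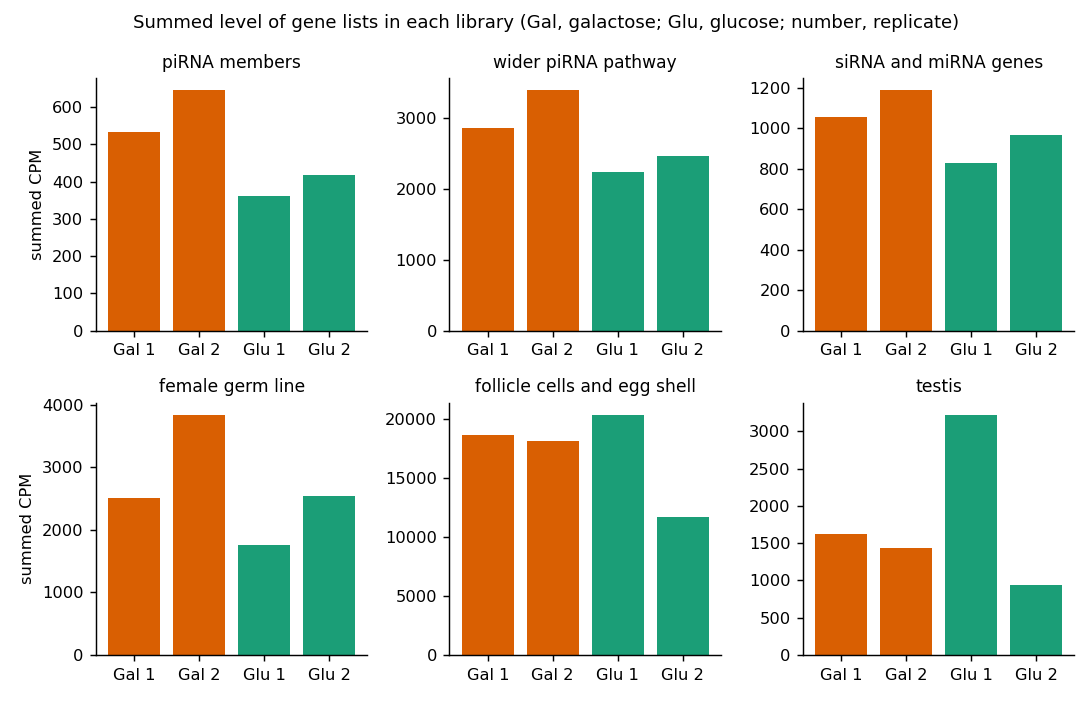
Summed CPM (y axis from 0) of 6 gene lists in galactose replicates 1 and 2 and glucose replicates 1 and 2. The 9 piRNA genes, the wider pathway and the siRNA and miRNA genes are each higher in both galactose libraries, the female germline markers overlap between the sugars (2509 in galactose replicate 1, 2547 in glucose replicate 2), and testis markers range from 942 to 3223 within glucose. Of the germline sums, osk alone gives 316 CPM in galactose replicate 1 and 629.6 CPM in glucose replicate 2.

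Transcript length also moved with the fold changes over the whole table. With the tested genes cut by exonic length into 4 classes of equal size, from shortest to longest, the median log2 fold change was -0.27, -0.12, -0.01 and 0.20. The share with both galactose libraries above both glucose libraries was 10.5%, 16.9%, 19.4% and 28% in the same order. The 18.8% given for all tested genes is thus a mean over lengths. zuc, rhi and cuff belong to the second class, piwi, aub and krimp to the third, and AGO3, spn-E and armi to the fourth. Each of the 9 lay above the median of its own class. The part of length in the members' values was not tested.

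The rest of the pathway was read from a list of 39 genes grouped by role, of which 37 were in the count table and all 37 were tested. By edgeR's test 0 of the 37 passed, 6 had an unadjusted p under 0.05, all higher on galactose (as were 3.08% of all tested genes), and DESeq2 also called 0. Their median log2 fold change was 0.48 (0.29 without galactose replicate 2). A higher mean on galactose was found for 35 of 37, against 46.9% of all tested genes. That count was 33 with upper-quartile scaling, and 32 without galactose replicate 2 or without glucose replicate 1. Both galactose libraries lay above both glucose libraries for 24 (64.9%), against 18.8% of all tested genes. With upper-quartile scaling 21 were so separated (14.6% of all genes), and with median-of-ratios scaling 25 (21.2%). For 28 of the 37 galactose replicate 2 was the highest library, a count for which no share over all tested genes was computed. The 2 with a lower mean on galactose had both galactose libraries below both glucose libraries, as 23.4% of all tested genes did. They were fs(1)Yb, the Yb protein of follicle cells, at 4.98 and 3.19 CPM on galactose against 4.99 and 5.19 CPM on glucose, and papi, a Tudor protein of the mitochondrial surface, at 59.4 and 63.0 CPM on galactose against 67.4 and 75.4 CPM on glucose.

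Cluster transcription and export had 6 tested genes, and in all 6 the galactose libraries lay above the glucose ones, against 18.8% of all tested genes. del encodes Deadlock, which links Rhino to the transcription machinery. It was at 78.2 and 116 CPM in galactose replicates 1 and 2, against 48.6 and 66.1 CPM in the glucose replicates, a log2 fold change of 0.76 ± 0.31 (SE; edgeR adjusted p = 0.603). Trf2, a TBP-related factor used at these clusters, was at 107 and 136 CPM on galactose, against 66.6 and 63.5 CPM on glucose, the largest log2 fold change of the wider list at 0.90. The export factor nxf3 had a log2 fold change of 0.71, but ssp2, which is listed at 0, covers 59.9% of its exons on the same strand, so its count is uncertain. The complex of Rhi, Del and Cuff thus had all 3 of its transcripts separated by diet, with none past the test.

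Nuclear silencing downstream of Piwi had 13 tested genes with a median log2 fold change of 0.43. All 13 had a higher mean and 9 were separated upward (46.9% and 18.8% of all tested genes). Su(var)3-3, the H3K4 demethylase Lsd1, was at 46.9 and 63.8 CPM on galactose, against 31.8 and 36.7 CPM on glucose (log2 fold change 0.69, edgeR adjusted p = 0.603). wde, cofactor of the H3K9 methyltransferase Eggless, was at 68.6 and 73.0 CPM on galactose, against 50.2 and 41.8 CPM on glucose. nxf2, a partner of Panoramix in silencing, was at 43.5 and 55.9 CPM on galactose, against 30.2 and 34.7 CPM on glucose.

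Among the 11 genes of mitochondrial biogenesis and Yb bodies the median was 0.49, with 9 higher in mean, 6 separated upward and 2 downward (46.9%, 18.8% and 23.4% of all tested genes). SoYb, a relative of Yb, was at 23.3 and 23.7 CPM in galactose replicates 1 and 2, against 12.7 and 12.8 CPM in the glucose replicates. The replicates of each diet lay close together, and its log2 fold change was 0.88 ± 0.28 (SE; edgeR adjusted p = 0.582, unadjusted p = 0.0158). Gasz, a mitochondrial scaffold for Armi, and BoYb, another relative of Yb, had log2 fold changes of 0.63 and 0.62. The 7 nuage and Tudor genes had a median of 0.40, all higher in mean and 3 separated upward (again 46.9% and 18.8% of all tested genes). tej, a Tudor and LOTUS protein that recruits Vasa and Spn-E, was at 31.1 and 41.5 CPM on galactose, against 20.0 and 23.3 CPM on glucose. squ was at 35.4 and 48.6 CPM on galactose, against 28.2 and 30.0 CPM on glucose. Of the exonic bases of squ 16.3% are shared with grp on the same strand, so its count is less certain. tud was at 245 and 139 CPM on galactose, against 160.3 and 82.6 CPM on glucose.

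**Figure D5:**
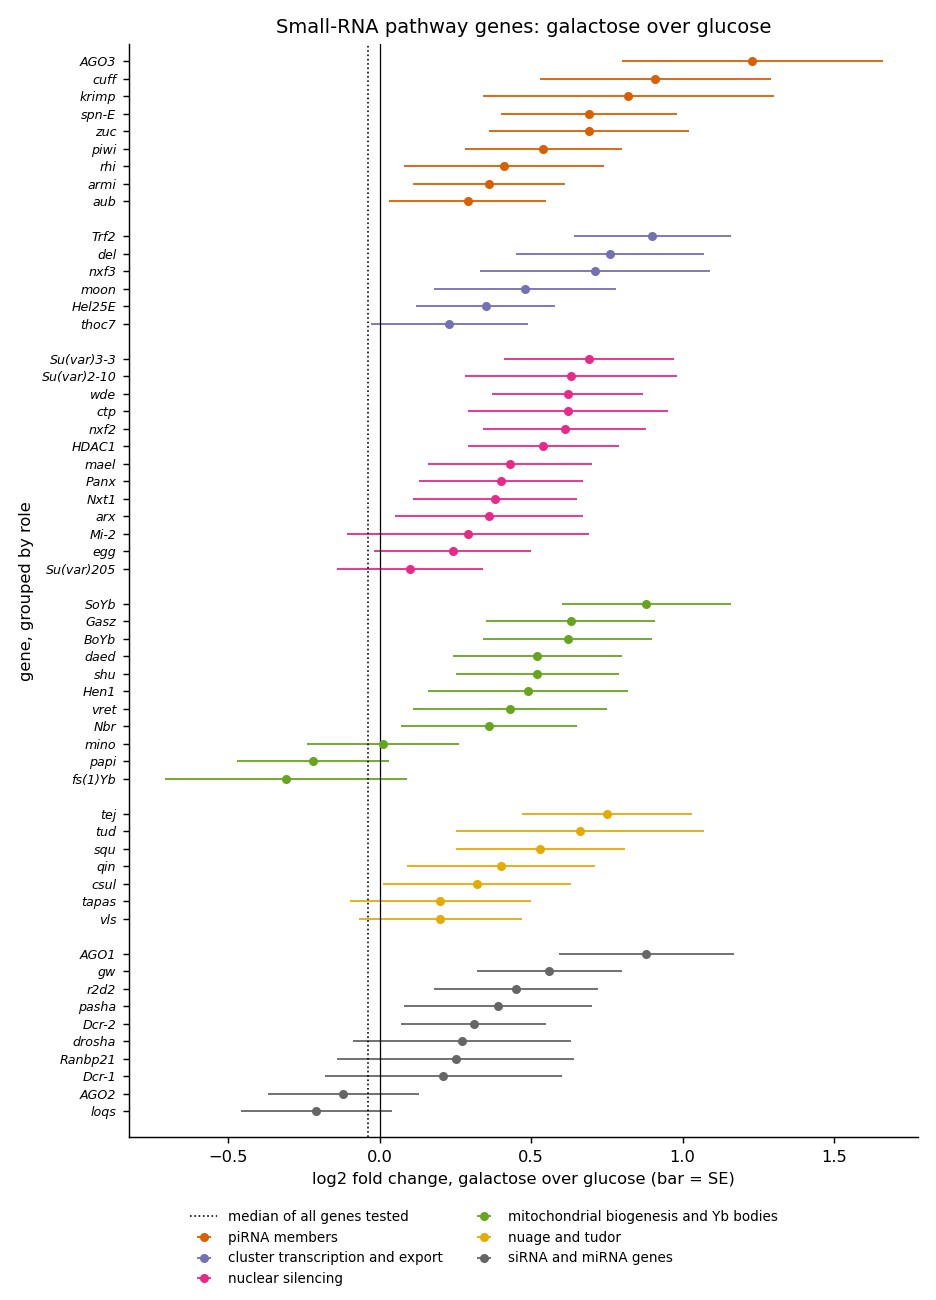
Log2 fold change of galactose over glucose with its SE for the 9 genes, the 37 tested genes of the wider pathway by role, and 10 genes of the siRNA and miRNA pathways; the dotted line is the median of all genes tested (-0.04). Of the piRNA genes, fs(1)Yb and papi lie below 0 and the 9 range from 0.29 to 1.23, while AGO2 and loqs lie below 0 among the others.

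The siRNA and miRNA pathways, which use other Argonautes and act throughout the body, had genes on both sides, most of them higher on galactose. Of 10 tested genes 8 had a higher mean, with a median log2 fold change of 0.29, 4 were separated upward and 1 downward, and edgeR and DESeq2 each called 0 (1 had an unadjusted edgeR p under 0.05, higher on galactose). Over all tested genes, 46.9% had a higher mean, 18.8% were separated upward, 23.4% downward, and 3.08% were higher at that unadjusted p. AGO1, the miRNA Argonaute, was at 145 and 141 CPM on galactose, against 93.7 and 61.4 CPM on glucose (log2 fold change 0.88, edgeR adjusted p = 0.582). gw, its silencing partner GW182, was at 296 and 355 CPM on galactose, against 207 and 236 CPM on glucose, and r2d2, a partner of Dicer-2, was at 30.5 and 36.1 CPM on galactose, against 26.3 and 22.4 CPM on glucose. AGO2, the siRNA Argonaute, had a log2 fold change of -0.12 (edgeR adjusted p = 0.886). The members' summed CPM over that of these 10 genes was 0.506 and 0.543 in galactose replicates 1 and 2, against 0.436 and 0.431 in the glucose replicates, higher in both galactose libraries. That difference was not tested.

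The genes whose profile over the 4 libraries was closest to the mean profile of the 9 were rst, BubR1, dsd, Sirt6 and nxf2, by Euclidean distance of log2 CPM centred on each gene's own mean. Their distances ran from 0.058 (rst) to 0.086 (nxf2). The mean profile stood at 0.19 and 0.48 in galactose replicates 1 and 2, against -0.44 and -0.23 in the glucose replicates. Among the members zuc was nearest to it (0.070, with 1 of 9413 other genes nearer), followed by piwi (0.148, with 55 nearer), and AGO3 was farthest (1.28, with 7250 nearer). The members entered that mean and the other genes did not, so these counts favour the members. With 4 libraries such closeness is shared by many genes and is given as a description.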

How the data were processed

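The authors deposited raw read counts per gene for each of the 4 libraries. The submitters' processing notes name TopHat2 2.0.12 with Bowtie2 2.2.3, HTSeq 0.6.1, DESeq2 and build BDGP6; if counting used strand is not given in the sources used. A second deposited table holds the authors' own comparison: mean scaled counts per diet (a signal), a log2 fold change of glucose over galactose, and raw and adjusted p-values.

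Here, counts were tested with edgeR 4.0.16 (quasi-likelihood F test, TMM, filterByExpr with minimum count 10 and minimum total count 15, no block, Benjamini-Hochberg over all genes) in R 4.3.3. Fold changes are galactose over glucose. DESeq2 1.42.0, limma-voom (limma 3.58.1), other scalings and filters, a replicate block and leaving out each library were alternatives; the code was tested on simulated counts. Gene names (17252 of 17628 identifiers) come from the reference gene table; coordinates and exonic lengths come from the BDGP6.54 annotation. All members were named, as were the 3 genes with the smallest p in each role group of the wider list and in the lists of siRNA and miRNA genes and of female germline markers, and the 5 nearest profiles; other genes were named after their values were seen. Members and lists were chosen with earlier results of these data known. Identical replicates were looked for: replicates of a diet differed beyond counting noise (chi-square per degree of freedom 68.0 for galactose and 111.4 for glucose).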

Additional observations from a re-analysis of the deposited data

How the results depend on the processing

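The 9 genes kept a higher mean on galactose in all 99 combinations of gene and alternative (11 alternatives). By DESeq2 88 genes were called over the whole table (13 higher on galactose, 75 lower), and 0 of the 9. Leaving out 1 library at a time, edgeR called between 0 and 549 genes (549 without glucose replicate 1, 147 without glucose replicate 2) and between 0 and 1 of the 9, namely AGO3 without glucose replicate 1 and krimp without glucose replicate 2, and 0 of the wider list. For the 9, the median log2 fold change then ran from 0.39 (without galactose replicate 2; 0.40 without glucose replicate 1) to 0.77, and that of the wider list from 0.29 to 0.52. Upper-quartile scaling moved the median of all genes from -0.04 to -0.15, and there the median of the 9 was 0.58, aub no longer separated, so that 7 of 9 did (14.6% of all genes), and 33 of 37 wider genes had a higher mean, against 35. The unadjusted calls over all genes were 386 higher and 647 lower (62.6% lower); this share was 78.5% with upper-quartile and 53.3% with median-of-ratios scaling, 41.8% with the replicate block (1072 higher, 770 lower) and 47.9% without glucose replicate 1 (1062 higher, 975 lower). The replicate numbers are not said to pair libraries; deviations from the diet mean of same-numbered libraries correlated at 0.23 over genes, and with a replicate block edgeR called 0 genes, the median of the 9 was 0.68 and that of the wider list 0.47. cuff had the fewest counts of the 9, from 57 to 115 a library.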
